A study of Bos taurus with 3 samples.

Results

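The 7 genes described here are 5 members of the SLC16 family of monocarboxylate carriers (SLC16A1, SLC16A7, SLC16A9, SLC16A11 and SLC16A13) and their partner glycoproteins BSG and EMB. They were taken by name, out of 18326 genes with at least 1 UMI (unique molecular identifier, 1 captured mRNA molecule). The cells came from the epithelium of the ventral rumen sac of 3 adult lactating Holstein dairy cows, with 1 droplet library of mRNA 3′ ends per cow and no treatment. All comparisons are therefore between kinds of cells within the same 3 animals. The libraries held 3369, 7401 and 9958 cells of cows 1, 2 and 3, with a median of 9747 to 12051 UMIs per cell.

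Monocarboxylate carriers move lactate, pyruvate and ketone bodies across membranes, and the best known of them, SLC16A1 (MCT1) and SLC16A7 (MCT2), do so together with a proton. These carriers need a single-pass glycoprotein to reach the plasma membrane: basigin (BSG, CD147) escorts SLC16A1, and embigin (EMB) is a related escort. The rumen epithelium takes up short-chain fatty acids of microbial fermentation, and turns much of the butyrate into ketone bodies, which leave the cell through such carriers. SLC16A9 (MCT9), SLC16A11 (MCT11) and SLC16A13 (MCT13) are less studied members of the family, and no role is assigned to them here.

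Cells were sorted into 10 states by their UMIs of 5 genes. These are TOP2A of dividing cells, the gap junction gene GJA1 (connexin 43), the IGF-binding protein gene IGFBP5, the glutathione transferase gene GSTA1 and the NOTCH-pathway gene DLK2. A cell counted as positive for TOP2A, GJA1, IGFBP5 or GSTA1 with at least 2 UMIs, and for DLK2 with at least 1. GJA1- thus means below 2 UMIs of GJA1, and such a cell may carry 1. The rules applied in order: TOP2A first, then GJA1 and within it IGFBP5 before GSTA1, then IGFBP5, GSTA1 and DLK2. A GJA1+ IGFBP5+ or IGFBP5+ GJA1- cell may therefore also carry GSTA1, GJA1+ GSTA1+ cells are those below 2 UMIs of IGFBP5, and a cell of any state set by TOP2A, GJA1, IGFBP5 or GSTA1 may carry DLK2. There were 834 GJA1+ IGFBP5+ cells, 296 GJA1+ GSTA1+ cells, 52 cells with GJA1 only, 120 TOP2A+ GJA1+ cells and 1545 TOP2A+ GJA1- cells. Another 6271 cells were IGFBP5+ GJA1-, 1056 were GSTA1+ GJA1-, and 4876 were DLK2+ with each other marker below 2 UMIs. No UMI of any of the 5 genes was found in 2927 cells, and 2751 met no rule and are called uncalled. The basal keratin genes KRT5, KRT14 and KRT15 stood at 43.9 to 54.7, 29.0 to 53.3 and 30.3 to 61.5 UMIs per 10000 over the states (means of 3 cows). KRT10 was low in all of them (0.208 to 0.380), and KRT6A ranged from 0.985 in DLK2+ to 28.3 in GJA1+ GSTA1+ cells. The proliferation gene MKI67 stood at 2.83 and 3.80 in the TOP2A+ states and at 0.0450 to 0.194 in the others. Markers of other tissues were low. All cells gave 12 UMIs of 4 fibroblast, 599 of 5 endothelial, 340 of 5 smooth muscle and 96 of 2 melanocyte genes. The 6 immune genes gave 2239 UMIs, at a summed level between 0.0429 and 0.397 UMIs per 10000 in any cow and state. SLC16A7, SLC16A11 and SLC16A13 did not exceed that range, with at most 0.126, 0.183 and 0.147 UMIs per 10000 in any cow and state.

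The states differed in depth. The median was 17551.5 UMIs in GJA1+ IGFBP5+ cells, 8842.5 in DLK2+ cells, 8130 in cells with no marker and 4599 in cells with GJA1 only. The mitochondrial share also differed, with medians of 18.1% in GJA1+ IGFBP5+ and 9.96% in DLK2+ cells. Cells under 1% mitochondrial UMIs numbered 34 of 296 GJA1+ GSTA1+ cells and 13 of the 52 with GJA1 only, against 13 of 834 GJA1+ IGFBP5+ and 4 of 4876 DLK2+ cells. Levels are therefore given as UMIs per 10000 UMIs of all cells of a state and cow, and detection was counted after each cell had been thinned to 5000 UMIs. Barcodes found in more than 1 library numbered 5 (cows 1 and 2), 10 (cows 1 and 3) and 20 (cows 2 and 3). The libraries also differed in the summed level of 12 immediate-early and stress genes, which in DLK2+ cells was 120.6, 118.4 and 36.3 UMIs per 10000 in cows 1, 2 and 3. In GJA1+ IGFBP5+ cells it was 46.7, 61.6 and 27.6.

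SLC16A1 gave 96859 UMIs and was found in 81.4% of all cells. Its level was highest in GJA1+ IGFBP5+ cells, at 10.7, 7.31 and 12.0 UMIs per 10000 in cows 1, 2 and 3. TOP2A+ GJA1+ cells followed with 10.0, 8.16 and 10.1, and the mean difference between these states, 0.595, was smaller than its SD over cows, 1.39. Cells with GJA1 only stood at 7.07, 7.33 and 7.03, and GJA1+ GSTA1+ cells at 6.46, 4.69 and 6.14. The 4 GJA1+ states thus led the order in the mean, ahead of every state below 2 UMIs of GJA1. However, GJA1+ GSTA1+ cells and the next state, GSTA1+ GJA1-, differed by 0.626 with an SD of 0.761.

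Among the states below 2 UMIs of GJA1, SLC16A1 was at 4.96, 4.57 and 5.88 UMIs per 10000 in GSTA1+ GJA1- cells. It was at 5.17, 3.60 and 5.25 in IGFBP5+ GJA1- cells and at 5.26, 3.96 and 4.11 in TOP2A+ GJA1- cells. These 3 states, which gave 136, 376 and 79 UMIs of GJA1 in that order (at most 1 per cell), did not differ in SLC16A1 beyond their spread. The lowest levels were in uncalled cells (3.39, 2.88 and 3.50), in cells with no marker (2.51, 2.01 and 2.78) and in DLK2+ cells (2.12, 1.51 and 2.31), each step being of the same sign in all 3 cows and larger than its SD. The level was lowest in cow 2 in 9 of the 10 states, the exception being cells with GJA1 only.

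BSG gave 283067 UMIs in 96.1% of cells. GJA1+ IGFBP5+ cells held 21.9, 25.1 and 28.9 UMIs per 10000 in cows 1, 2 and 3, and TOP2A+ GJA1+ cells held 24.4, 23.8 and 25.4, with a difference within the spread. GJA1+ GSTA1+ cells were at 18.4, 21.8 and 22.3, below TOP2A+ GJA1+ cells in all 3 cows. GSTA1+ GJA1- cells were at 11.0, 19.5 and 18.6, IGFBP5+ GJA1- cells at 11.4, 12.4 and 15.2 and TOP2A+ GJA1- cells at 10.6, 14.2 and 12.4. Cells with no marker were at 4.79, 6.48 and 8.44, and DLK2+ cells at 4.37, 4.92 and 7.69, the lowest of the 10 states. BSG and SLC16A1 thus had the same top pair and the same bottom pair of states, while cells with GJA1 only, of which the 3 libraries held 32, 13 and 7, had rank 3 for SLC16A1 and rank 5 for BSG.

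**Figure D1:**
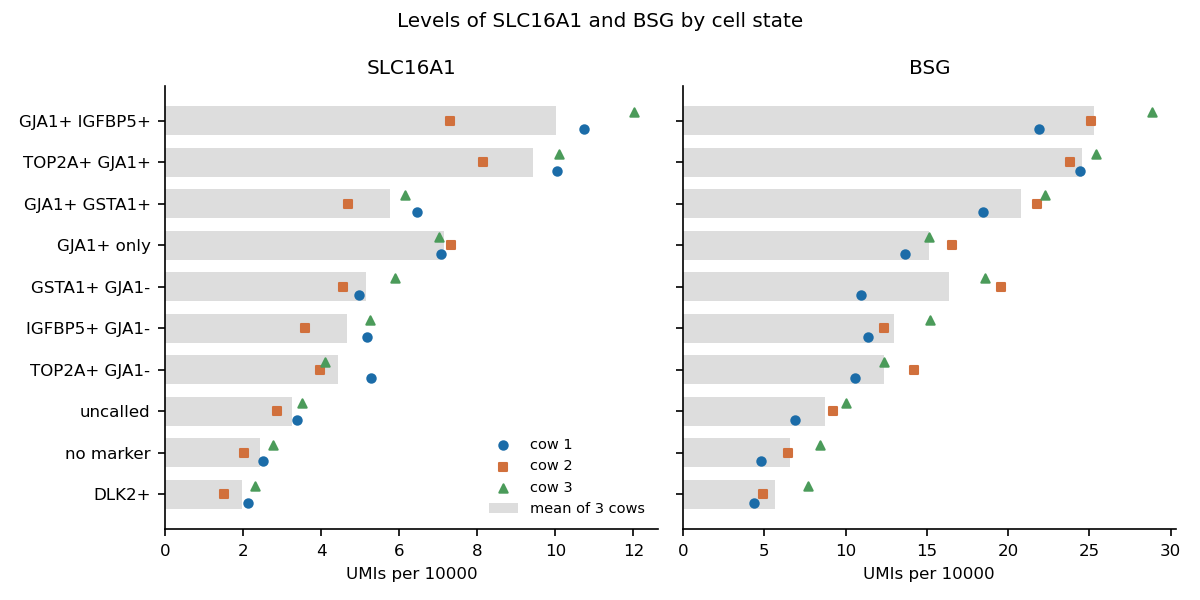
Levels of SLC16A1 (left) and BSG (right) in UMIs per 10000 on a linear axis from 0, in 10 cell states; grey bars are means of 3 cows and points are single cows. GJA1+ IGFBP5+ and TOP2A+ GJA1+ cells are at the top and DLK2+ cells at the bottom of both panels (SLC16A1 10.0 against 1.98, BSG 25.3 against 5.66 in the mean).

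The UMIs of BSG per UMI of SLC16A1 differed between cows, with an SD of 0.167 to 1.04 within a state. The ratio was 2.04, 3.43 and 2.40 in GJA1+ IGFBP5+ cells and 2.06, 3.26 and 3.33 in DLK2+ cells. It was highest in GJA1+ GSTA1+ cells, at 2.85, 4.65 and 3.63, and lowest in cells with GJA1 only, at 1.93, 2.26 and 2.16. Cow 1 had the lowest ratio in all 10 states.

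The comparison of GJA1+ IGFBP5+ with DLK2+ cells asked how far the carriers differ between cells with GJA1 and IGFBP5 and the DLK2 state. SLC16A1 was 5.06, 4.84 and 5.21 times as high in GJA1+ IGFBP5+ cells of cows 1, 2 and 3, and BSG was 5.01, 5.10 and 3.75 times as high. No cow of one state overlapped with a cow of the other for either gene. The share of all genes without overlap is not given here, so this does not set the 2 genes apart. UMIs were summed per cow and state and tested with edgeR's quasi-likelihood method, in which each cow was a block. SLC16A1 rose by 2.54 ± 0.12 on the log2 scale (SE from the fit over sums of 3 cows, edgeR adjusted p = 6.62e-19) and BSG by 2.38 ± 0.15 (edgeR adjusted p = 1.47e-15). A gene counted as called where its Benjamini-Hochberg adjusted p was below 0.05 and its log2 difference, up or down, above 0.25. By this rule all 6 tested members were called, where 50.3% of 10174 genes were called: SLC16A1, BSG and SLC16A9 as higher, and SLC16A7, SLC16A11 and SLC16A13 as lower in GJA1+ IGFBP5+ cells.

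Depth, mitochondrial share and the immediate-early genes moved with this comparison, as given above, and the summed level of the 6 immune markers was 0.0687 to 0.224 UMIs per 10000 in GJA1+ IGFBP5+ cells against 0.0558 to 0.0900 in DLK2+ cells. With every cell thinned to 5000 UMIs before the states were set, SLC16A1 differed by 2.65 and BSG by 2.43 on the log2 scale. GSTA1, of which DLK2+ cells were below 2 UMIs by rule, was at 10.3 against 0.0671 UMIs per 10000 (means of 3 cows). The part of GSTA1, of the mitochondrial share, of the immediate-early genes and of the immune markers in these values was not tested.

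GJA1+ GSTA1+ cells were compared with the same DLK2+ cells, so the 2 comparisons share their reference sums. The summed level of the 6 immune markers was 0.0724, 0.169 and 0.397 UMIs per 10000 in GJA1+ GSTA1+ cells of cows 1, 2 and 3 against 0.0558, 0.0701 and 0.0900 in DLK2+ cells, and the immediate-early sum was 41.9, 79.5 and 26.4 against 120.6, 118.4 and 36.3. The median depth was 15468 against 8842.5 UMIs and the median mitochondrial share 14.7% against 9.96%. The part of these in the comparison was not tested. With cells under 1% mitochondrial UMIs left out the log2 differences were 1.71 for SLC16A1 and 2.05 for BSG. SLC16A1 was 3.04, 3.103 and 2.66 times as high, which the fit gave as 1.67 ± 0.12 on the log2 scale (SE, edgeR adjusted p = 3.99e-14). BSG was 4.22, 4.43 and 2.89 times as high, or 2.02 ± 0.15 in the fit (edgeR adjusted p = 1.14e-13). The called members were these as higher and SLC16A7 and SLC16A13 as lower, 4 of 6 tested, beside 42.7% of all genes.

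GJA1+ IGFBP5+ and GJA1+ GSTA1+ cells were set apart by IGFBP5, and GSTA1 was required only of the second. In the first against the second, GSTA1 was at 10.3 against 18.2 UMIs per 10000 (means of 3 cows). KRT15 was at 61.2 against 30.3, KRT6A at 9.46 against 28.3 and KRT5 at 49.3 against 47.4. The part of these differences was not tested. SLC16A1 was 1.66, 1.56 and 1.96 times as high in GJA1+ IGFBP5+ as in GJA1+ GSTA1+ cells of cows 1, 2 and 3. It was the 1 called member of 6 (log2 fold change 0.87 ± 0.11 SE, edgeR adjusted p = 2.57e-06), in a comparison in which 3.03% of genes were called. BSG was 1.19, 1.15 and 1.30 times as high and was not called, at a fitted log2 difference of 0.36 (95% interval 0.07 to 0.65, edgeR adjusted p = 0.204). Without the filter on low counts it was called, at 0.40 (edgeR adjusted p = 0.00247). SLC16A9 differed by 0.85 (95% interval 0.35 to 1.35) and missed the threshold at an adjusted p of 0.0506 in edgeR, which DESeq2 (0.0491) and the fit without the filter (0.00307) passed. The immune sum was lower in GJA1+ IGFBP5+ cells (0.0687, 0.0707 and 0.224 against 0.0724, 0.169 and 0.397 UMIs per 10000), and its part was not tested. With cells under 1% mitochondrial UMIs left out SLC16A1 differed by 0.84.

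GJA1+ and GJA1- states could also be compared within IGFBP5+ cells and within dividing cells. They did not differ by GJA1 alone. In GJA1+ IGFBP5+ against IGFBP5+ GJA1- cells, GSTA1 was at 10.3 against 1.58 UMIs per 10000 (means of 3 cows). IGFBP5 was at 4.38 against 3.03 and DLK2 at 0.142 against 0.500. GJA1+ IGFBP5+ cells held 2.08, 2.03 and 2.29 times the SLC16A1 of IGFBP5+ GJA1- cells, and 1.92, 2.03 and 1.90 times the BSG. The log2 fold changes were 1.18 ± 0.11 and 1.04 ± 0.14 (SE, edgeR adjusted p = 2.51e-10 and 3.70e-07). SLC16A7 and SLC16A11 were called as lower, so that 4 of 6 members were called beside 32.4% of genes. Of the 12 immediate-early and stress genes, 5 were called as lower and 1 as higher in this comparison. The median mitochondrial share was 18.1% against 12.6% and the median depth 17551.5 against 11920 UMIs. The part of these and of the other markers in the comparison was not tested.

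Among dividing cells, TOP2A+ GJA1+ cells held 1.91, 2.06 and 2.46 times the SLC16A1 of TOP2A+ GJA1- cells, and 2.31, 1.68 and 2.05 times the BSG. The log2 fold changes were 1.07 ± 0.12 and 0.99 ± 0.14 (SE, edgeR adjusted p = 6.32e-08 and 1.18e-05). SLC16A1 and BSG were the 2 members called of 6, beside 10.7% of genes, and without the cow as a block BSG was not called (edgeR adjusted p = 0.134). GSTA1 was at 6.29 against 1.21 UMIs per 10000 in these states and IGFBP5 at 2.53 against 0.882 (means of 3 cows). The median mitochondrial share was 19.6% against 12.9% and the median depth 20331.5 against 15024 UMIs. Of 12 immediate-early genes, 2 were called as lower. The part of all these in the comparison was not tested. The log2 difference of GJA1+ and GJA1- states in TOP2A+ cells, less that in IGFBP5+ cells, was -0.11 for SLC16A1 (95% interval -0.43 to 0.21). For BSG it was -0.05 (95% interval -0.46 to 0.35). None of the members was called there, and edgeR called 0 of 10174 genes (0%), with 795 at an unadjusted p under 0.05; DESeq2 called 0 as well.

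Dividing cells below 2 UMIs of GJA1 were set against cells with no marker. SLC16A1 was 2.09, 1.96 and 1.48 times as high in TOP2A+ GJA1- cells (log2 fold change 0.79 ± 0.11 SE, edgeR adjusted p = 7.38e-07). BSG was 2.21, 2.19 and 1.47 times as high (0.85 ± 0.14 SE, edgeR adjusted p = 9.24e-06), and was not called without the cow as a block (edgeR adjusted p = 0.0844). SLC16A7 was called as lower, which makes 3 of 6 members beside 38.8% of genes. In cells thinned to 5000 UMIs the differences of SLC16A1 and BSG were 0.48 and 0.45 on the log2 scale. The immediate-early and stress genes moved with this comparison: their summed level was 43.1, 75.9 and 28.8 UMIs per 10000 in TOP2A+ GJA1- cells of cows 1, 2 and 3 against 108.7, 116.6 and 38.8 in cells with no marker, and 9 of 12 were called as lower. TOP2A+ GJA1- cells also held GSTA1 at 1.21, IGFBP5 at 0.882 and DLK2 at 0.203 UMIs per 10000 (means of 3 cows). Cells with no marker held none of these by rule. Of the 4510 UMIs of GSTA1 in TOP2A+ GJA1- cells, 4136 came from cow 3. The median depth was 15024 against 8130 UMIs. The part of these markers and of the immediate-early and stress genes in these values was not tested.

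DLK2+ cells were close to cells with no marker. These states did not differ by DLK2 alone. DLK2+ cells gave 1661 UMIs of IGFBP5, 254 of GSTA1, 104 of GJA1 and 94 of TOP2A, at most 1 of each per cell. Cells with no marker gave none by rule. The part of these markers in the comparison was not tested. None of the 6 tested members was called, beside 0.383% of genes (39 of 10174). SLC16A1 was 0.845, 0.750 and 0.831 times as high in DLK2+ cells, a fitted log2 difference of -0.32 (95% interval -0.55 to -0.10, edgeR adjusted p = 0.459). BSG differed by -0.23 (95% interval -0.52 to 0.06), and by -0.13 without cow 2. In cells thinned to 5000 UMIs before the states were set, both genes were called as lower in DLK2+ cells, by -0.48 and -0.47 (edgeR adjusted p = 0.00565 and 0.0089), and SLC16A1 was also called where 1 UMI of any marker made a cell positive (-0.55, edgeR adjusted p = 0.00671).

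**Figure D2:**
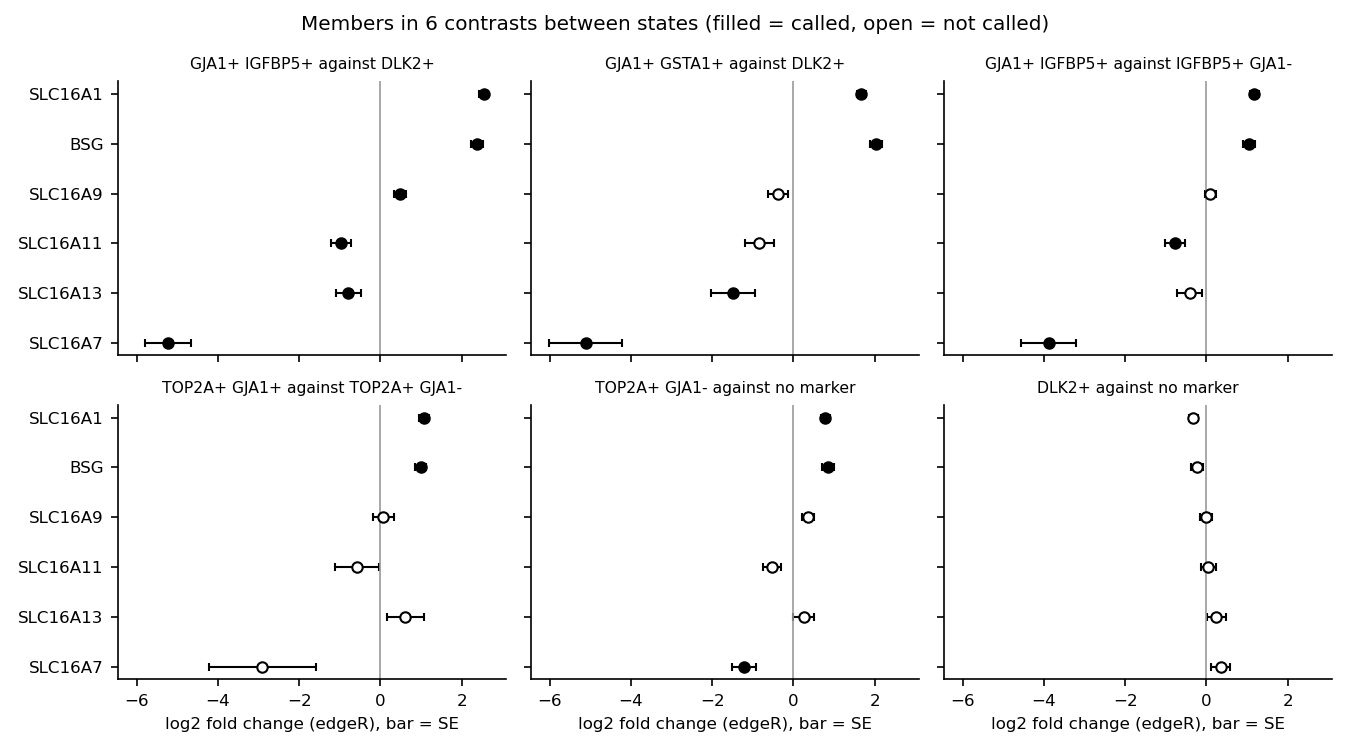
Fitted log2 fold changes of the 6 tested members in 6 comparisons between states, with SE as bars; filled points were called and open points were not. SLC16A1 and BSG lie right of 0 in every panel in which a state with GJA1 or TOP2A comes first (0.79 to 2.54), and SLC16A7 lies left of 0 in those panels (-5.23 to -1.22).

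Levels were also followed along the UMIs of single markers in cells thinned to 5000 UMIs, where the thresholds of the states play no part. In cells with 0, 1, 2, 3 and at least 4 UMIs of GJA1 the mean level of SLC16A1 over cows was 3.40, 7.20, 9.23, 9.58 and 10.4 UMIs per 10000. BSG went from 9.09 to 20.4, 23.8, 24.6 and 24.8 over the same bins. The largest step of both genes lay between 0 and 1 UMI of GJA1, and from 2 UMIs on the means differed by less than their SD over cows (1.75 to 3.07 for SLC16A1). Every bin held at least 42 cells of each cow.

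Along DLK2 the order was opposite. SLC16A1 stood at 4.36, 2.66, 2.17 and 1.81 UMIs per 10000 in cells with 0, 1, 2 and at least 3 UMIs of DLK2, and BSG at 11.5, 6.999, 5.81 and 5.06. The level of SLC16A1 fell at each step in each of the 3 cows. Along IGFBP5 and GSTA1 both genes were higher in cells with at least 4 UMIs than in cells with 0: SLC16A1 went from 3.03 to 8.26 along IGFBP5 and from 3.06 to 7.03 along GSTA1. Along TOP2A the level of SLC16A1 was 3.79 at 0 UMIs, 5.55 at 1 and 4.79 at 3 or more.

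Pairs of markers showed how GJA1 and the others went together. Among thinned cells without a UMI of GJA1, SLC16A1 was at 2.83 UMIs per 10000 without IGFBP5 and at 4.19 with it (means of 3 cows). With GJA1 it was at 6.36 without IGFBP5 and at 10.0 with it. The highest mean level of SLC16A1 was thus in cells with both genes, in cows 1, 2 and 3 at 10.9, 7.496 and 11.6. GSTA1 made a larger step than IGFBP5 among cells without GJA1. SLC16A1 was there at 2.90 without GSTA1 and at 5.83 with it. BSG was at 7.58 without GSTA1 and 17.1 with it, against 7.86 and 10.8 for IGFBP5. With GJA1, SLC16A1 was at 6.52 without GSTA1 and at 8.95 with it. For TOP2A it was at 3.32 and 4.46 without GJA1 and at 8.48 and 9.94 with GJA1. In the few cells with UMIs of both GJA1 and DLK2 (53, 44 and 21 cells) SLC16A1 was at 6.72, 6 and 9.71, against 2.48, 1.55 and 2.96 in cells with DLK2 and no GJA1.

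**Figure D3:**
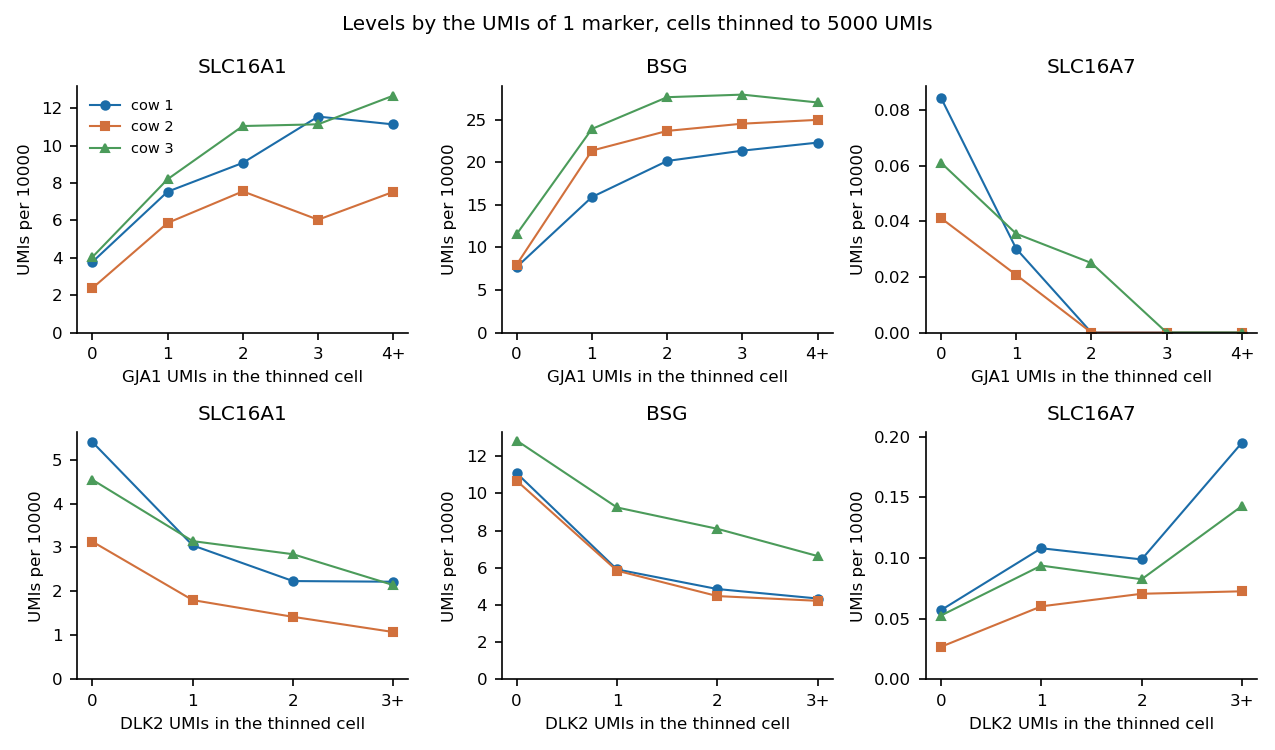
Levels of SLC16A1, BSG and SLC16A7 in UMIs per 10000 (linear axes from 0) by the UMIs of GJA1 (top) or DLK2 (bottom) in cells thinned to 5000 UMIs, 1 line per cow; the last bin takes all higher counts. SLC16A1 and BSG are higher with GJA1 and lower with DLK2 in each cow, and SLC16A7 is at 0 from 3 UMIs of GJA1 on.

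SLC16A7, known as a carrier of high affinity, was sparse and had the opposite order. DLK2+ cells held 0.126, 0.0560 and 0.0892 UMIs per 10000 in cows 1, 2 and 3, and cells with no marker 0.106, 0.0351 and 0.0831. GJA1+ IGFBP5+ cells gave 1 UMI in each cow, or 3 UMIs in all against 352 in DLK2+ cells. The level in DLK2+ cells was thus 38.9 times that in GJA1+ IGFBP5+ cells over all cows (exact 95% interval 13.2 to 190, counting error only). GJA1+ GSTA1+ cells gave 1 UMI, in cow 3, and TOP2A+ GJA1+ cells gave 1 UMI, also in cow 3. Cells with GJA1 only gave 0 UMIs, which at 3 UMIs allows up to 0.155, 0.198 and 0.555 UMIs per 10000 and does not set them apart from DLK2+ cells.

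The fitted log2 fold changes of SLC16A7 were -5.23 ± 0.57 for GJA1+ IGFBP5+ and -5.12 ± 0.90 for GJA1+ GSTA1+ against DLK2+ cells (SE, edgeR adjusted p = 1.73e-09 and 1.90e-05). Values of this size rest on 1 to 3 UMIs on the low side: without cow 3, which held the single UMI, that of GJA1+ GSTA1+ cells was -8.69. Against IGFBP5+ GJA1- cells, which gave 257 UMIs, GJA1+ IGFBP5+ cells were lower by -3.88 (edgeR adjusted p = 2.66e-05), a call lost in thinned cells (-2.52, edgeR adjusted p = 0.153). TOP2A+ GJA1- cells had 3, 0 and 90 UMIs in cows 1, 2 and 3, or 0.0107, 0 and 0.0510 UMIs per 10000, and were lower than cells with no marker by -1.22 (edgeR adjusted p = 0.00120). This call was lost without the cow as a block (edgeR adjusted p = 0.133), and the value was -3.67 without cow 3, whose TOP2A+ cells carried most of the UMIs. Along DLK2 the thinned level of SLC16A7 was 0.0453, 0.0872, 0.0839 and 0.137 at 0, 1, 2 and at least 3 UMIs.

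SLC16A9 gave 5101 UMIs and differed widely between cows. It was at 0.151, 0.152 and 0.305 UMIs per 10000 in GJA1+ IGFBP5+ cells and at 0.147, 0.0783 and 0.328 in DLK2+ cells, and the groups overlapped. Cow 3 had the highest level in all 10 states. GJA1+ IGFBP5+ cells were called as higher than DLK2+ cells (log2 fold change 0.47 ± 0.15 SE, edgeR adjusted p = 0.00861), but the call was lost with total counts in place of TMM (adjusted p = 0.136), with DESeq2 (0.058), in thinned cells (0.674), without the cow as a block (0.721) and without cow 2 (0.378). Its size ran from 0.19 without cow 2 to 0.75 without cow 3. GJA1+ GSTA1+ cells had the lowest mean level, 0.0362, 0.0925 and 0.216 in the 3 cows, and differed from DLK2+ cells by -0.38 (edgeR adjusted p = 0.216), a difference that was called without cow 2 (-0.71, adjusted p = 0.0281), whose levels had the other order, and that shrank to -0.19 without cow 1 (adjusted p = 0.638). TOP2A+ GJA1- cells, at 0.1997, 0.169 and 0.368, were above cells with no marker, at 0.132, 0.0959 and 0.289, in each cow. That difference of 0.37 missed the threshold (edgeR adjusted p = 0.0528) and passed it in 5 alternatives, among them the one without cow 3 (0.69, adjusted p = 0.0210).

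SLC16A11 gave 2524 UMIs. It was at 0.0869, 0.0959 and 0.183 UMIs per 10000 in DLK2+ cells, and at 0.0469, 0.0534 and 0.0504 in GJA1+ IGFBP5+ cells. The log2 fold change was -0.98 ± 0.25 (SE, edgeR adjusted p = 0.00126), and the call was lost without cow 3 (-0.67, adjusted p = 0.0548) and without the cow as a block (adjusted p = 0.0904). IGFBP5+ GJA1- cells, at 0.0549, 0.0980 and 0.130, were higher than GJA1+ IGFBP5+ cells by a fitted 0.77 (log2 fold change -0.77, edgeR adjusted p = 0.0146). That call was lost in edgeR without cow 2 (adjusted p = 0.0639), without cow 3 (0.116) and without the block (0.365). Against DLK2+ cells, GJA1+ GSTA1+ cells differed by -0.84 and missed the threshold (edgeR adjusted p = 0.0570), which total counts in place of TMM (0.028), no filter on low counts (0.00368) and leaving out cow 1 (0.035) changed. TOP2A+ GJA1- cells were below cells with no marker by -0.53 (95% interval -0.98 to -0.09, edgeR adjusted p = 0.0504), but in cow 1 the levels were 0.0963 and 0.0925, the other way round. The difference became a call in 4 alternatives, without cow 1 among them (edgeR adjusted p = 0.0354), and shrank to -0.076 without cow 3 (edgeR adjusted p = 0.899).

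SLC16A13 gave 781 UMIs. DLK2+ cells held 0.0441, 0.0284 and 0.0501 UMIs per 10000 and GJA1+ IGFBP5+ cells 0.0218, 0.0155 and 0.0196. The log2 fold change was -0.80 ± 0.31 (SE, edgeR adjusted p = 0.0305), and the call was lost in 5 alternatives, with adjusted p of 0.0829 to 0.363, among them those without cow 2 (0.0957) and without cow 3 (0.134). GJA1+ GSTA1+ cells gave 1, 1 and 4 UMIs and were called as lower than DLK2+ cells (-1.48 ± 0.54 SE, edgeR adjusted p = 0.0264). This was lost in thinned cells (0.131), without the block (0.0933), without cow 1 (0.0773) and without cow 2 (0.135). Against IGFBP5+ GJA1- cells, GJA1+ IGFBP5+ cells differed by -0.41 (95% interval -1.04 to 0.22), which was called only where 1 UMI of a marker made a cell positive (-0.75, edgeR adjusted p = 0.0177).

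**Figure D4:**
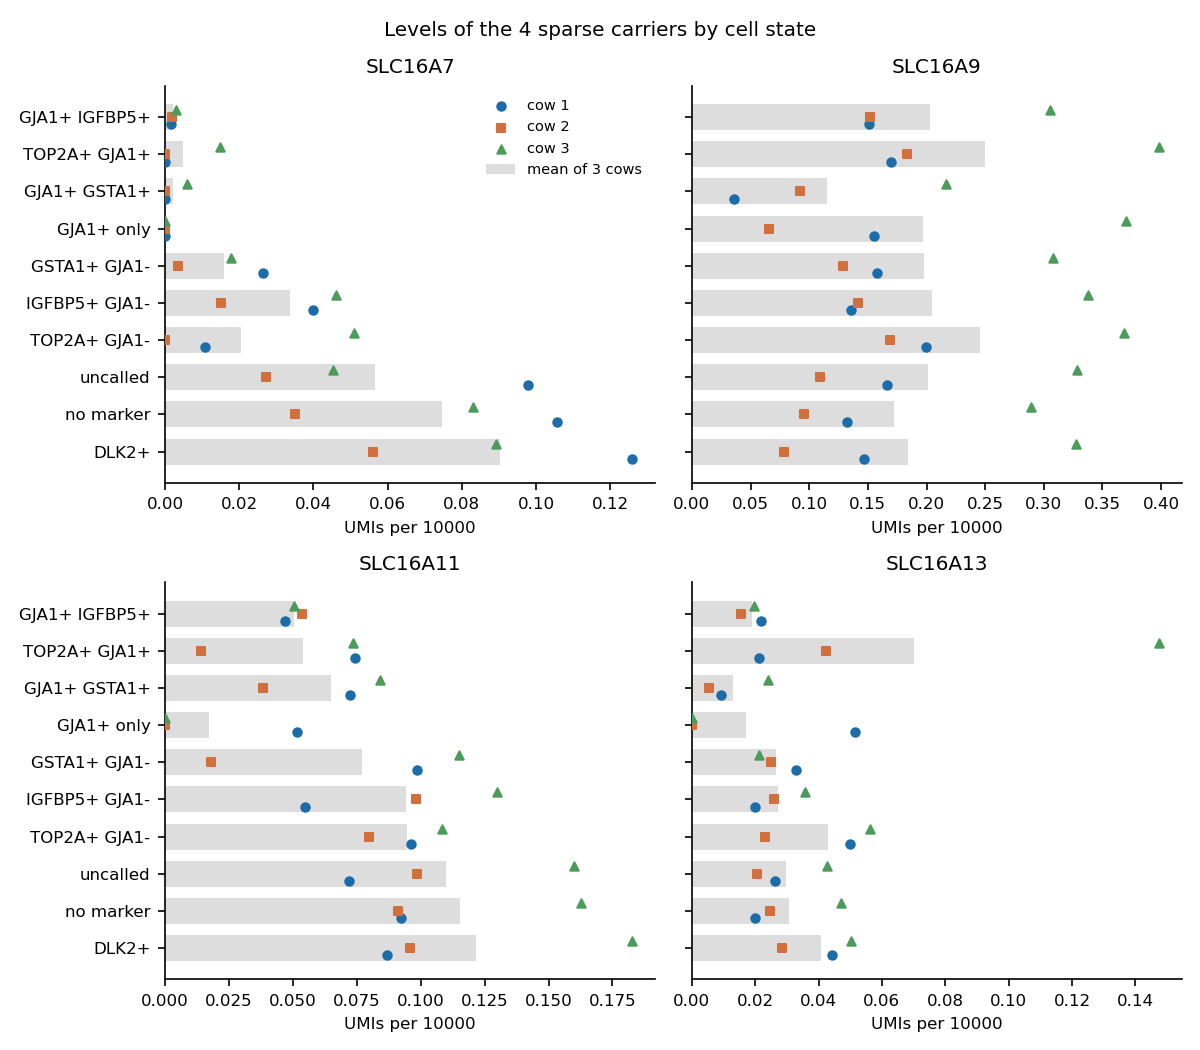
Levels of SLC16A7, SLC16A9, SLC16A11 and SLC16A13 in UMIs per 10000 on linear axes from 0 (the scale differs by panel), in 10 states; grey bars are means of 3 cows and points single cows. SLC16A7 gave at most 3 UMIs in any GJA1+ state (too few cells with GJA1 only to set them apart) and is highest in DLK2+ cells, SLC16A9 is highest in cow 3 throughout, and the spread of SLC16A13 in TOP2A+ GJA1+ cells rests on 15 UMIs.

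EMB was not found beyond 1 UMI, in a cell of cow 3 with no marker, among 237958901 UMIs. That is 0.0042 UMIs per 1000000 (exact 95% interval 0.000106 to 0.0234, counting error only), so its level was not comparable between states, and it did not pass the filter on low counts. BSG, in contrast, was found in every state and cow.

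Co-detection was counted as the share of cells with at least 1 UMI of both genes after thinning to 5000 UMIs. This left out shallower cells (427 of the DLK2+, 7 of the GJA1+ IGFBP5+, 31 of the GJA1+ GSTA1+ and 518 of those with no marker). Of the 52 cells with GJA1 only, 27 were left out, and 11, 9 and 5 of cows 1, 2 and 3 were kept. SLC16A1 was found there in 96.3% of thinned cells in the mean, against 78.7% unthinned. The share to compare with is the product of the single shares, which independent detection would give. In GJA1+ IGFBP5+ cells, BSG was found in 100% of the cells of each cow and SLC16A1 in 97.4%, 93.0% and 98.7%, so that all SLC16A1+ cells had BSG. In TOP2A+ GJA1+ cells the shares of SLC16A1 were 97.9%, 97.0% and 100%, again with BSG in every cell. In GJA1+ GSTA1+ cells 77.0%, 75.8% and 83.5% of cells had both.

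In DLK2+ cells both genes were found together in 49.6%, 36.8% and 57.0% of the cells of cows 1, 2 and 3, with SLC16A1 in 57.4%, 42.9% and 59.8% and BSG in 84.5%, 83.2% and 93.9%. Unthinned, the mean shares in DLK2+ cells were 66.9% for SLC16A1 and 93.3% for BSG, against 99.7% and 100% in GJA1+ IGFBP5+ cells. Of the DLK2+ cells with SLC16A1, 10.8% had no UMI of BSG in the mean over cows, against 0 of those in GJA1+ IGFBP5+ cells. No state here lacks the genes by nature, so the share that free RNA alone would give was not measured.

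BSG was found in most cells of every state, so the share with both genes could exceed the product of the single shares by little, and the ratio says little about whether the genes go together. The ratio of the observed share to the product was 1.02 ± 0.00945 (SD, n = 3 cows) in DLK2+ cells, 1.02 ± 0.0101 in cells with no marker and 1.03 ± 0.0146 in TOP2A+ GJA1- cells, and 1.00 in GJA1+ IGFBP5+ cells, where nearly every cell had both. It was above 1 in all 3 cows of 6 states. Spearman's rho of the thinned UMIs of SLC16A1 and BSG over cells was 0.166 in GJA1+ IGFBP5+ and 0.178 in DLK2+ cells, 0.433 in IGFBP5+ GJA1- cells and 0.455 in TOP2A+ GJA1- cells (means of 3 cows). Over all cells it was 0.470. The cells of a cow share a library, and rho is given as a description.

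**Figure D5:**
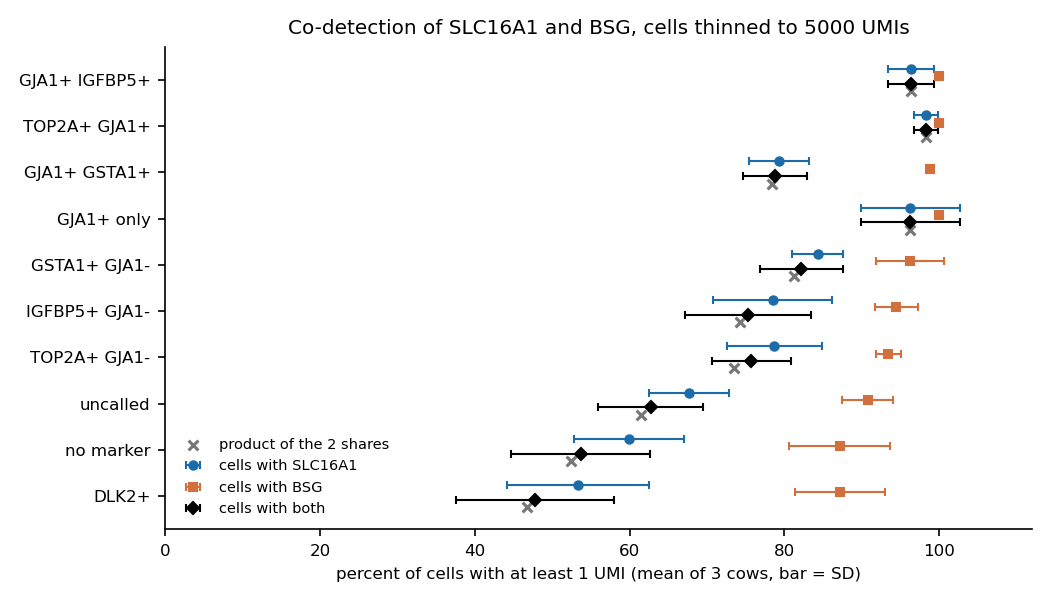
Percent of cells thinned to 5000 UMIs with SLC16A1, with BSG and with both, as means of 3 cows with SD bars, and the product of the 2 single shares as crosses, by state. BSG is found in 87.1% to 100% of cells in the mean of every state. The share with both follows that of SLC16A1 from 47.8% in DLK2+ to 98.3% in TOP2A+ GJA1+ cells, and the crosses lie at or just below it. Of the 52 cells with GJA1 only, 27 were too shallow to be counted.

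SLC16A7, found in 4.61% ± 1.41 of thinned DLK2+ cells (SD, n = 3 cows) and in 0.146% ± 0.252 of GJA1+ IGFBP5+ cells, was also set against SLC16A1. Both were found in 2.57% of DLK2+ cells against a product of 2.53%, with ratios of 1.16, 1.14 and 0.781 in cows 1, 2 and 3. In IGFBP5+ GJA1- cells the ratios were 0.788, 0.821 and 0.785, below 1 in each cow, for 1.25% of cells against a product of 1.58%. SLC16A11 and SLC16A13 were found together in 0.0994% of DLK2+ cells against a product of 0.142%. That share rests on a few cells per cow, and a departure from independent detection of this pair was not detectable at this depth.

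The other genes of the pathway were counted from fixed lists. Of 13 other carriers of monocarboxylates, of which SLC16A8 was not named among the measured genes, 1 passed the filter on low counts. This was the mitochondrial pyruvate carrier subunit gene MPC2, which was higher in GJA1+ IGFBP5+ than in DLK2+ cells by 0.36 on the log2 scale (edgeR adjusted p = 0.00109). Of 12 tested genes of lactate and pyruvate enzymes, 7 were called as higher and 4 as lower in GJA1+ IGFBP5+ cells, where 50.3% of all genes were called in either direction. The median log2 fold change was 0.73 beside -0.04 for all genes. LDHA, which forms lactate, rose by 1.54, and DLAT, a core subunit of pyruvate dehydrogenase, by 1.16. PDK3 and PDK4, kinases that switch this enzyme off, moved apart, PDK3 by 1.17 and PDK4 by -2.84. PDK4 was at 33.4, 61.4 and 14.4 CPM (counts per 1000000, with library sizes scaled by TMM) in GJA1+ IGFBP5+ cells and at 237.5, 517.9 and 61.3 in DLK2+ cells of cows 1, 2 and 3, lower in each cow.

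Among genes of ketone body enzymes, BDH1, which makes 3-hydroxybutyrate, stood at 350, 407 and 327 CPM in GJA1+ IGFBP5+ cells against 76.0, 96.9 and 68.1 in DLK2+ cells of cows 1, 2 and 3 (log2 fold change 2.18 ± 0.10 SE, edgeR adjusted p = 6.85e-19). ACAT1, which joins and splits acetoacetyl-CoA, rose by 1.53, and OXCT1, which starts ketone body use, differed by 0.15 and was not called. In GJA1+ GSTA1+ cells BDH1 rose by 1.96 and ACAT1 by 1.13. Of the 12 lactate and pyruvate genes, 7 were higher and 3 lower there, beside 42.7% of all genes called, with LDHA at 1.56, PDK3 at 1.43, DLAT at 0.99 and PDK4 at -2.76. Between GJA1+ IGFBP5+ and GJA1+ GSTA1+ cells 0 of these 12 lactate and pyruvate genes were called, beside 3.03% of all genes.

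Of 6 other genes whose products are known to bind BSG or EMB or to share their carriers, 4 were called as higher in GJA1+ IGFBP5+ than in DLK2+ cells and 1 as lower, beside 50.3% of all genes called, with a median of 0.34 beside -0.04. The amino acid carrier gene SLC7A5 rose by 1.11, the cyclophilin gene PPIA by 0.65 and NPTN, a relative of BSG, by 0.42, while the cyclophilin gene PPIB fell by 0.58. In GJA1+ GSTA1+ cells 3 were higher and 2 lower, beside 42.7% of all genes called (median 0.33 beside -0.07), with SLC7A5 at 0.91, PPIA at 0.62, PPIB at -0.79 and CD44 at -0.63. Of the 12 immediate-early and stress genes, 9 were called as lower and 2 as higher in GJA1+ IGFBP5+ cells, beside 50.3% of all genes called, with a median of -1.14, led by JUNB (-1.83), ZFP36 (-1.69), FOS (-1.60) and EGR1 (-1.50). In GJA1+ GSTA1+ cells 9 were lower and 1 higher, beside 42.7% of all genes called, with JUNB at -2.01, FOS at -1.74, ZFP36 at -1.54 and EGR1 at -1.51.

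The genes most like SLC16A1 were sought over the 29 sums of state and cow, after each cow's mean had been taken out, among 10173 other tested genes. BSG had the highest Pearson r (0.963), followed by the scaffold gene IQGAP2 (0.957), the sulfotransferase gene SULT1A1 (0.955), the glypican gene GPC1 (0.954) and the ATP synthase subunit gene ATP5F1B (0.953). The 5 genes most like BSG were ANAPC11 (0.983), the short-chain acyl-CoA dehydrogenase gene ACADS (0.980), PRXL2A (0.978), GLRX (0.976) and ZMIZ2 (0.9747), and SLC16A1 came 17th. The r of SLC16A1 was -0.844 with SLC16A7, -0.488 with SLC16A11, -0.237 with SLC16A13 and 0.127 with SLC16A9. The sums of a cow share a library and the states share markers, so these values describe the 29 sums and carry no p.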

How the data were processed

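The authors counted reads per gene with Cell Ranger 3.1.0 on a bovine Ensembl annotation, filtered cells by genes, UMIs and mitochondrial share, removed doublets and cells outside the epithelium, and deposited the UMI counts of 3 libraries in 1 matrix. The deposited natural log values of the same cells, scaled by the authors to 10000 UMIs per cell, served to name the rows of the matrix and were not tested. Cells were assigned to cows by the suffix of their barcode, read as the cow number, and 0 columns were left unmapped. The cells sum to 38912809, 94856658 and 104189434 UMIs in cows 1, 2 and 3.

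Levels are summed UMIs of a gene per 10000 UMIs. The exact intervals of pooled UMI ratios and of EMB cover counting error only, and the other intervals come from the edgeR fit. Each SE of a log2 fold change is its absolute value divided by the square root of the test's F. It rests on a dispersion estimated over all states and is no spread over cows. Sums of at least 10 cells per state and cow (29 sums, with cells with GJA1 only of cow 3 dropped) were fitted with edgeR 4.0.16 (R 4.3.3): filterByExpr, TMM, quasi-likelihood, all states together. EMB failed the filter, which left 10174 genes. Cow was a block because sums of 1 cow come from 1 animal. Their deviations from the state means correlated at 0.456 to 0.571 on average within cows. Taking out the state means pushes the value between cows (-0.273) below 0, so it is no contrast to these. The 3 cows are the replicates, so an exact sign-flip test of a single value could not go below p = 0.25. In simulated counts of the first comparison (9773 genes) 97% of genes changed 2-fold and 68% of those changed 1.5-fold were recovered. Every simulated gene had the common dispersion of the fit (biological coefficient of variation 0.078), and only genes above a minimum of UMIs were changed. The recovery of genes with a larger dispersion, or of sparse genes, was not measured. The alternatives were DESeq2 1.42.0, no block, no filter, no minimum fold, each cow left out, other marker thresholds, thinning, cells under 1% mitochondrial UMIs left out, other depths of thinning for co-detection, means over cells and, chosen after the data were seen, total counts in place of TMM. Genes named from each list were the 4 called ones with the largest log2 difference in the comparisons with DLK2+ cells, and those most alike were the 5 with the highest r. OXCT1 was named after its value was seen, and some results on ketone body enzymes are not reported here. The 7 genes, the states and the lists were chosen with earlier results of these data known. Gene coordinates and sequences were not used here.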

Additional observations from a re-analysis of the deposited data

How the results depend on the processing

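Over the 7 comparisons, SLC16A1 and BSG kept their direction and their side of the threshold in 162 of 168 values under the alternatives, and 0 reversed. The exceptions were BSG without the cow as a block in TOP2A+ GJA1- against no marker (0.82) and in TOP2A+ GJA1+ against TOP2A+ GJA1- (0.95), BSG between the GJA1+ states without a filter (0.40), and DLK2+ against no marker for SLC16A1 from 1 UMI of a marker (-0.55) and in thinned cells (-0.48) and for BSG in thinned cells (-0.47). The cause of these exceptions was not tested. The alternative without a minimum fold change reused the main fit, so its values among the 168 could not reverse or change side.

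The replicate block, which paired the sums of each cow, carried many calls. In the order GJA1+ IGFBP5+ and GJA1+ GSTA1+ against DLK2+, the GJA1+ states against each other, TOP2A+ GJA1- and DLK2+ against no marker, TOP2A+ GJA1+ against TOP2A+ GJA1-, and GJA1+ IGFBP5+ against IGFBP5+ GJA1-, the genes called were 5113, 4346, 308, 3950, 39, 1093 and 3301. Without the block they were 1977, 2187, 21, 909, 6, 82 and 515, and in thinned cells 2379, 2699, 68, 2572, 261, 99 and 1142. With 1 cow left out the GJA1+ states against each other gave 135 to 193, DLK2+ against no marker 14 to 39 and TOP2A+ GJA1+ against TOP2A+ GJA1- 506 to 707, and DLK2+ against no marker gave 136 without a filter and 102 from 1 UMI of a marker. The test of GJA1 in TOP2A+ against IGFBP5+ cells, with 0 genes, gave 34 without a filter, 5 from 1 UMI of a marker, 1 in thinned cells and 0 to 1 with a cow left out.

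Reversed were SLC16A9 in GJA1+ IGFBP5+ against IGFBP5+ GJA1- in thinned cells (-0.062), and in the test of GJA1 between TOP2A+ and IGFBP5+ cells SLC16A1 at 3 UMIs of a marker (0.031) and BSG with DESeq2 (0.012), total counts (0.042), 3 UMIs (0.070) and a cow left out (-0.27 to 0.10), all of them uncalled. Means over cells moved SLC16A1 in cells with GJA1 only to 8.56, BSG there to 17.5, and BSG in TOP2A+ GJA1+ cells to 25.3 UMIs per 10000.

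The ratio of co-detection to the product moved at 3000 UMIs to 1.00 (GJA1+ IGFBP5+), 1.02 (GJA1+ GSTA1+), 1.03 (IGFBP5+ GJA1- and GSTA1+ GJA1-), 1.05 (DLK2+), 1.09 (no marker) and 1.08 (uncalled). At 8000 UMIs it was 1.01 (TOP2A+ GJA1-, DLK2+, no marker and uncalled), 1.00 (IGFBP5+ GJA1-) and 0.999 (GSTA1+ GJA1-).

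Total counts in place of TMM moved the median of all genes in GJA1+ IGFBP5+ against DLK2+ from -0.04 to -0.24 and the share of higher among called genes from 49.3% to 30.8%. The share went from 48.7% to 28.3% between the GJA1+ states, from 48.2% to 62.8% in TOP2A+ GJA1- against no marker and from 52.9% to 38.1% in GJA1+ IGFBP5+ against IGFBP5+ GJA1-. With DESeq2 it went from 39.6% to 50.7% in TOP2A+ GJA1+ against TOP2A+ GJA1-. Each state rests on 3 cows, and SLC16A7 and SLC16A13 on 6 UMIs or fewer in GJA1+ GSTA1+ cells, where the few UMIs limit their values.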
